A study of Mus musculus with 9 samples.

Results

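The genes described here are the nuclear genes whose names begin with Nduf, most of which encode parts of respiratory complex I or the factors that assemble it. They were chosen by name alone: of 47 names beginning with Nduf in the deposited exon table, the pseudogene Ndufab1-ps was left out, which leaves 46 of the 33732 genes listed. By role they are 7 core subunits, 29 accessory subunits, 8 assembly factors (Ndufaf genes), and Ndufa4 with its paralog Ndufa4l2. The data come from RNA immunoprecipitation sequencing (RIP-seq) of whole healthy liver from 8-week-old C57BL/6 WT mice, in which RNA bound to a protein is pulled down with an antibody and sequenced. An anti-HuR antibody was used for 3 libraries (HuR RIP), a control IgG for another 3 (IgG RIP), and 3 were made from the lysate (Input), which the table holds only as the authors' mean. All groups share the same strain, tissue and age, no treatment is named, and per the labels' protocols each pull-down used the lysate of 1 mouse liver without crosslinking. The series states its question as which RNAs HuR targets in mouse liver.

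Complex I is the largest enzyme of the respiratory chain. It takes electrons from NADH through a flavin and a row of iron-sulfur clusters in its matrix arm, passes them to ubiquinone, and pumps protons through its membrane arm. The core subunits carry out this chemistry, accessory subunits surround and stabilise them, and assembly factors help to build the complex without staying in it; the mitochondrially encoded subunits are not analysed here. HuR, encoded by Elavl1, binds RNA at U-rich and AU-rich stretches, mostly in 3′ untranslated regions (3′ UTRs), and is known for stabilising mRNAs.

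Library sizes were estimated from the RPKM values (reads scaled by exon length in kilobases and by library size in M, 1e6 reads). They ranged between 26.3 and 26.9 M for HuR RIP and between 15.9 and 28.8 M for IgG RIP, the lowest being IgG 1. All read counts given below rest on these estimates, and the depth of Input is unknown. Elavl1 RNA stood at 0.95, 0.304 and 0.99 RPKM in the HuR libraries and 0.523, 0.0253 and 0.0134 RPKM in the IgG libraries, which does not check the antibody, since that binds the protein. The hepatocyte marker Alb stood at 430, 442 and 444 RPKM in HuR libraries and 291, 135 and 345 RPKM in IgG libraries, and all 8 hepatocyte markers passed the filter. The 5 cholangiocyte markers summed to 13.1, 3.78 and 7.62 RPKM in HuR libraries and 0.662, 0.575 and 0.0343 RPKM in IgG libraries, with 0.448 in Input. Of these 5, 2 passed the filter, between 1 and 2 were at 0 in each HuR library and between 3 and 4 in each IgG library. The sums of the Kupffer cell, endothelial, stellate, lymphoid and erythroid markers overlapped between the groups. Erythroid markers summed to 171.9, 64.5 and 133.8 RPKM in HuR libraries and 234.3, 101.5 and 98.7 RPKM in IgG libraries. The part of these cell types in the results below was not tested. The table's headers mark replicate 2 with M and replicate 3 with F. Yet HuR 2 held 10.2 RPKM of Xist and 0.0188 RPKM of Ddx3y, and HuR 3 held 0.463 and 2.04 RPKM. The authors' log2 fold columns also number these 2 libraries the other way. Both belong to the same group, so unpaired group comparisons are not touched, but pairing by replicate number would be. Values named HuR 2 or HuR 3 follow the RPKM column names. The libraries also differed in overall level: the median of log2(RPKM + 0.5) over the tested genes was 1.33, 1.32 and 1.03 for the HuR libraries in order of number, and 0.87, -0.17 and -0.33 for the IgG libraries.

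The differences between HuR RIP and IgG RIP of the tested complex I mRNAs had a median close to that of all tested RNAs, and Ndufc2 was the one gene among them that passed the test. Of the 46 genes, 25 had at least 0.5 RPKM in at least 3 of the 6 pull-down libraries and were tested, as were 5510 genes in all. At an adjusted p under 0.05 (limma on log2(RPKM + 0.5), adjusted over all tested genes), 1 of the 25 was higher in HuR RIP, Ndufc2, and 0 were lower; over all tested genes, 0.672% were higher and 0.127% lower. Without adjustment, 5 of the 25 had a limma p under 0.05 with a positive difference and 0 with a negative one, against 27.9% and 3.19% of all tested genes. The median difference between HuR RIP and IgG RIP was 0.89 on the log2 scale for the 25 complex I genes and 0.92 for all tested genes. For the 3943 protein-coding genes among those tested it was 1.08, above that of the complex I genes. This gap was not tested. With no filter the medians were 0.58 for the 46 complex I genes and 0.09 for all 28263 genes with a read in a pull-down. Of the 25, 21 had a positive difference and 4 a negative one, and 12 lay above the median of all genes, against 50% of all tested genes by construction. Since all genes together are shifted by 0.92, and by -0.18 when each library is centred at its median, a positive sign alone does not set a gene apart: with centring 8 of the 25 were positive and 17 negative, with TMM-like scaling 14 and 11, and with quantile normalization 11 and 14. In 7 of the 25 all 3 HuR libraries stood above all 3 IgG libraries, against 31.3% of all tested genes, and in 0 of the 25 did they stand below, against 3.48%. In a bulk pull-down from whole liver, fewer cells of a type and less RNA per cell cannot be told apart.

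**Figure D1:**
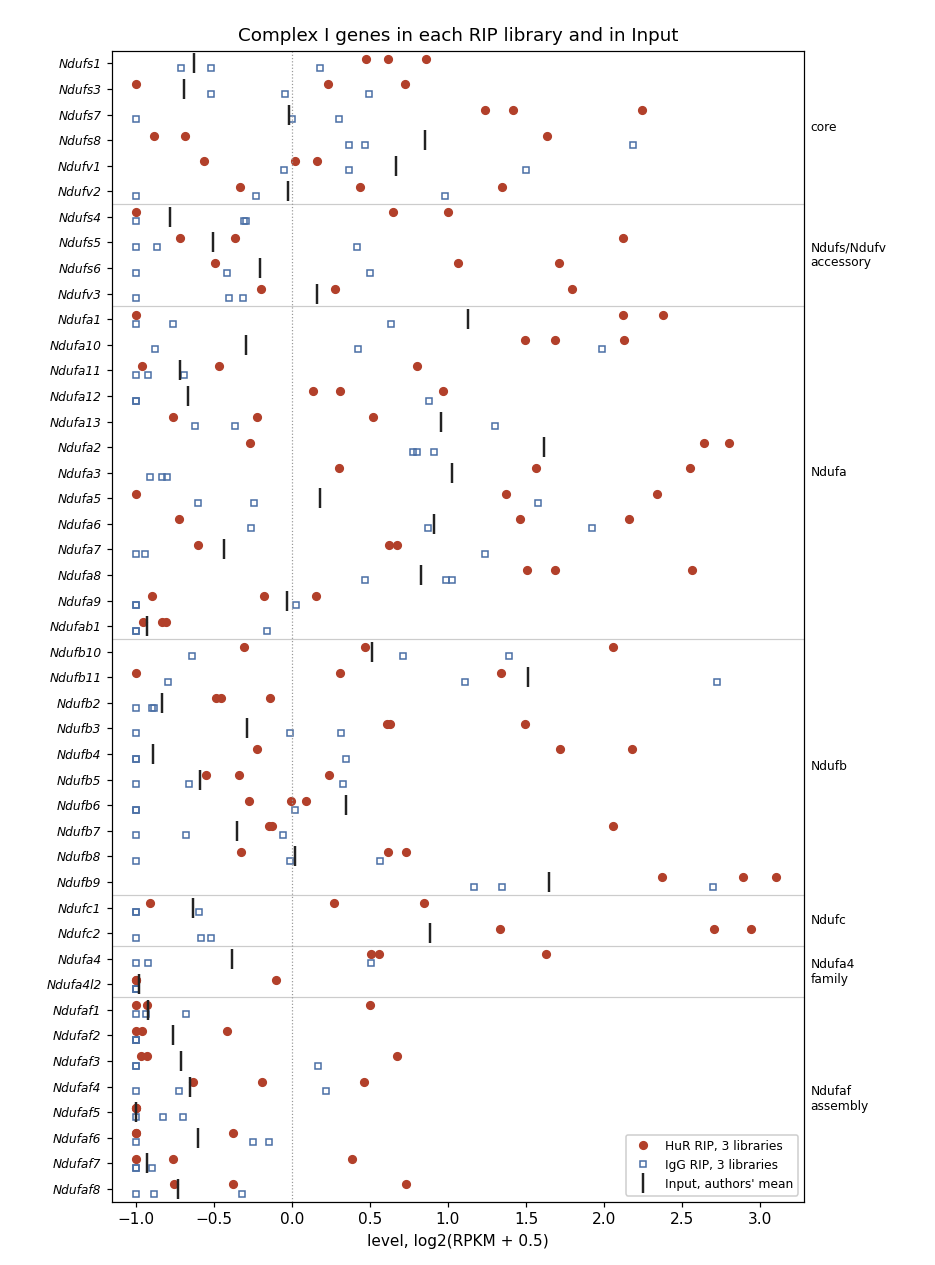
Level of 45 of the 46 complex I genes on the log2(RPKM + 0.5) scale, by role, in 3 HuR RIP libraries (filled circles), 3 IgG RIP libraries (open squares) and the authors' Input mean (vertical tick); the dotted line marks 0.5 RPKM. The circles and squares of most genes interleave, while those of Ndufc2 are apart and the Ndufaf assembly factors lie mostly left of the dotted line.

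Summed over the 46 genes, the level was 66.5, 47.4 and 76.6 RPKM in the HuR libraries, against 49.9, 15.3 and 16.03 RPKM in the IgG libraries and 28.1 RPKM in Input. IgG 1 thus held more complex I RNA than the lowest HuR library, HuR 2, and over 3 times the level of either other IgG library. The 46 genes together had 7732 reads in the HuR libraries, out of 79.9 M, and 2674 in the IgG libraries, out of 71.3 M. Of the 46, 5, 8 and 2 were at 0 in the HuR libraries, against 5, 14 and 24 in the IgG libraries; of all 33732 genes, 48.6%, 51.1% and 44.2% were at 0 in the HuR libraries, against 53.1%, 60.2% and 67% in the IgG libraries. HuR 2 ranked the genes differently from the others of its group: over the 46 genes, Spearman's rho was 0.70 between HuR 1 and HuR 3, 0.15 between HuR 1 and HuR 2, and 0.15 between HuR 2 and HuR 3, while over all tested genes it was 0.66, 0.56 and 0.61. These are descriptions over genes that share a library, and genes are not independent replicates.

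**Figure D2:**
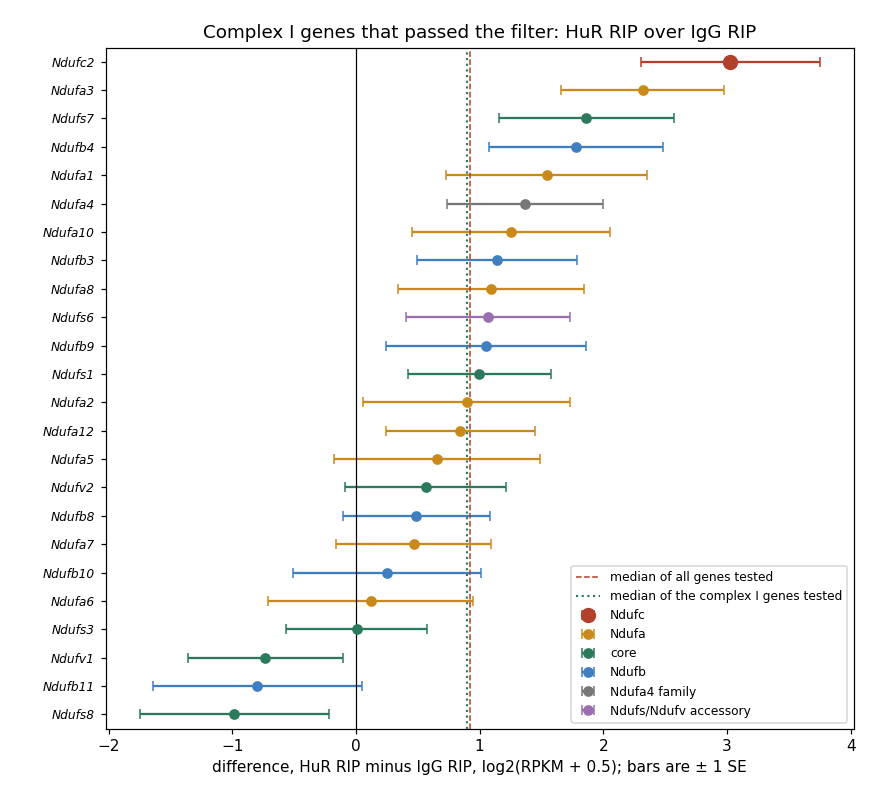
Difference between HuR RIP and IgG RIP on the log2(RPKM + 0.5) scale for 24 of the 25 complex I genes that passed the filter, with ± 1 SE from limma (n = 3 libraries each) and colour by role. The larger point is Ndufc2, at 3.02; the dotted and dashed lines are the medians of the 25 genes (0.89) and of all tested genes (0.92).

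To show the U-rich sequence that these transcripts hold, since HuR is known to prefer U, the 30 bases richest in U were taken from the longest annotated 3′ UTR of 8 genes (GENCODE M21 transcripts, GRCm38, read 5′ to 3′ on the transcript's strand and written with T). They are the gene that passed the test, the 4 next by p, Ndufs1 for its last-exon reads, and the 2 core genes with the most negative differences; capitals mark runs of at least 4 T. None of these windows is a mapped binding site. The richest window of each gene held a median of 15 U over the 46 genes and 14 over the 25 tested ones. Over the tested protein-coding genes the median was 18, so a U-rich window does not set these genes apart.
Ndufc2: ataTTTTctgagTTTTatgggaTTTTctgt
Ndufa3: tcTTTTctttcgtgggtttcTTTTgttgtt
Ndufs7: agaatcccttgtgaataaacccatcctgat
Ndufb4: accgaacagtttcTTTTTcttggatttatt
Ndufa4: tgttgaTTTTTTTTTTTTTTggagtttatt
Ndufs1: ttgctgtaatcccttataagttaatgTTTT
Ndufs8: tggctcagccttgtggcccctttagcccat
Ndufv1: accatagcttgtctggaactttgcTTTTct
The Ndufc2 window, at chr7:97407713-97407742 on the plus strand, holds 17 U, 12 of them in 3 separate runs. The Ndufa3 window (chr7:3620166-3620195, plus strand) holds 20 U, and the Ndufa4 window (chr6:11900401-11900430, minus strand) holds 22, most of them in 1 run. The Ndufb4 window (chr16:37647576-37647605, minus strand) and the Ndufs1 window (chr1:63143757-63143786, minus strand) hold 15 each. The Ndufs7 window (chr10:80256761-80256790, plus strand) holds 8 and the Ndufs8 window (chr19:3908887-3908916, minus strand) 9, with no run of 4, and the Ndufv1 window (chr19:4007476-4007505, minus strand) holds 13.

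Ndufc2, an accessory subunit of the membrane arm, was the complex I gene that rose in HuR RIP. It stood at 7.18, 2.01 and 6.01 RPKM in the HuR libraries, against 0.167, 0.199 and 0 RPKM in the IgG libraries and 1.34 RPKM in Input. All HuR libraries lay above Input and all IgG libraries below it, and the HuR and IgG values did not overlap. The means were 5.07 ± 2.71 RPKM for HuR RIP and 0.122 ± 0.107 RPKM for IgG RIP (SD, n = 3 each), from 144, 40 and 122 reads against 2, 4 and 0. The difference was 3.02 ± 0.72 (SE) on the log2(RPKM + 0.5) scale, with a limma adjusted p of 0.0483, and 2.11 relative to the median of all tested genes. Ndufc2 and Ndufa3 were the 2 of the 25 genes that passed the filter through the HuR libraries alone, as did 10.3% of all tested genes, so for them a difference is built into passing the filter, and the call of Ndufc2 has to be read with that. This adjusted p is close to the threshold: it was 0.0687 without HuR 1, 0.0207 without HuR 2, 0.0488 without HuR 3, 0.0427 without IgG 1, 0.23 without IgG 2 and 0.0509 without IgG 3. With centring, TMM-like scaling and quantile normalization the adjusted p was over the threshold, at 0.128, 0.0651 and 0.108, and the difference was positive in each. Ndufc2 lies at chr7:97400003-97407802 (GRCm38, plus strand), and its last listed exon, chr7:97407619-97407802, carries the window printed above. That exon held 97, 5 and 122 reads in the HuR libraries and 0 in every IgG library, so reads scaled to library size were at least 66.7-fold higher in HuR RIP, with a floor of 3 reads over the IgG group. HuR 2 differed from the other HuR libraries here, since 35 of its 40 reads lay in the first exon. Its partner Ndufc1, the other small membrane-arm subunit of that name, stood at 0.705, 0.0324 and 1.3 RPKM in HuR libraries and 0.162, 0 and 0 RPKM in IgG libraries; it was below the filter and was not tested.

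All 7 core subunits passed the filter, and 0 of the 7 passed the test. Their median difference, 0.01 on the log2 scale, was below that of the 17 tested accessory subunits, at 1.05; 2 of the 7 lay above the median of all genes. No test of one role against another was made. Ndufs7, which carries the iron-sulfur cluster next to ubiquinone, stood at 1.86, 2.17 and 4.24 RPKM in HuR libraries, against 0.734, 0.502 and 0 RPKM in IgG libraries and 0.488 RPKM in Input. The groups did not overlap, and the difference of 1.86 ± 0.71 (SE) had a limma adjusted p of 0.0995. Ndufs1, the largest core subunit of the matrix arm, was the most even across HuR libraries, at 0.888, 1.31 and 1.03 RPKM, against 0.632, 0.199 and 0.111 RPKM in IgG libraries and 0.148 RPKM in Input. Its groups did not overlap either, and its difference was 0.999 ± 0.576 (SE), with a limma adjusted p of 0.228.

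The other core subunits had no such separation. Ndufs8, which carries a pair of iron-sulfur clusters, stood at 0.0415, 2.6 and 0.123 RPKM in HuR libraries and 4.04, 0.788 and 0.882 RPKM in IgG libraries, with 1.31 RPKM in Input. HuR 2 alone was within the IgG range and the other HuR libraries were below it; the difference was -0.98 ± 0.77 (SE), with a limma adjusted p of 0.36. Ndufv1, which binds the flavin that takes electrons from NADH, stood at 0.179, 0.512 and 0.62 RPKM in HuR libraries and 2.33, 0.789 and 0.468 RPKM in IgG libraries, with 1.09 RPKM in Input. All 3 HuR libraries were below Input, and the difference was -0.73 ± 0.62 (SE), with a limma adjusted p of 0.398. Ndufv2, its partner in the NADH-oxidising tip, had a difference of 0.56. Ndufs3, a matrix-arm subunit, had a difference of 0.01, and was the 1 tested complex I gene for which all IgG libraries stood above Input.

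Of the 4 accessory subunits with Ndufs or Ndufv names, only Ndufs6 passed the filter. Ndufs6, a zinc-binding subunit of the matrix arm, stood at 1.59, 0.211 and 2.77 RPKM in HuR libraries and 0.913, 0.251 and 0 RPKM in IgG libraries. HuR 2 was within the IgG range, and the difference was 1.07 ± 0.67 (SE), with a limma adjusted p of 0.261. Ndufv3 was below the filter, although its HuR libraries, at 0.709, 2.97 and 0.373 RPKM, all lay above the IgG libraries, at 0.304, 0.256 and 0 RPKM. Ndufs4 stood at 0, 1.06 and 1.5 RPKM in HuR libraries and 0.309, 0.317 and 0 RPKM in IgG libraries. Ndufs5 was carried by HuR 2, at 0.276, 3.85 and 0.11 RPKM in HuR libraries and 0.835, 0 and 0.0505 RPKM in IgG libraries.

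Among the 13 accessory subunits with Ndufa names, 9 passed the filter, 0 passed the test, and all 9 differences were positive, with a median of 0.89, though 6 were negative with centring, 3 with TMM-like scaling and 5 with quantile normalization. Ndufa3, a small subunit of the membrane arm, came nearest to the threshold. However, Ndufa3 passed the filter through the HuR libraries alone, so a difference is built into its passing. It stood at 0.735, 2.45 and 5.35 RPKM in HuR libraries and 0.0617, 0.0741 and 0.0336 RPKM in IgG libraries, with 1.54 RPKM in Input. The groups did not overlap, but HuR 1 lay below Input; reads were 20, 66 and 147 against 1, 2 and 1. The difference was 2.32 ± 0.66 (SE), with a limma adjusted p of 0.0623. Ndufa8, a subunit of the intermembrane-space face, stood at 5.41, 2.34 and 2.72 RPKM in HuR libraries and 1.54, 1.48 and 0.886 RPKM in IgG libraries, with 1.28 RPKM in Input. Its groups did not overlap; the difference was 1.09 ± 0.75 (SE), with a limma adjusted p of 0.306.

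Ndufa1, an X-linked subunit of the membrane arm, stood at 3.86, 0 and 4.7 RPKM in HuR libraries and 1.05, 0.0895 and 0 RPKM in IgG libraries. Its absence from HuR 2 made the groups overlap, and the difference was 1.54 ± 0.81 (SE), with a limma adjusted p of 0.193. Ndufa2, a matrix-arm subunit with a thioredoxin-like fold, was likewise low in HuR 2, at 6.47, 0.332 and 5.72 RPKM in HuR libraries and 1.38, 1.25 and 1.21 RPKM in IgG libraries. It was the third highest of the 46 by mean HuR level, after Ndufb9 and Ndufc2. Ndufa5 and Ndufa6 were also low in HuR 2, at 0 and 0.105 RPKM, against 2.08 and 2.25 RPKM in HuR 1 and 4.55 and 3.96 RPKM in HuR 3. Ndufa10, a membrane-arm subunit related to nucleoside kinases, stood at 3.87, 2.71 and 2.31 RPKM in HuR libraries, all above Input at 0.316 RPKM. IgG 3 held 3.46 RPKM of it, against 0.843 and 0.0456 RPKM in IgG 1 and IgG 2, and so overlapped the HuR group. Ndufa12 and Ndufa7 had differences of 0.84 and 0.47. Below the filter were Ndufa9, Ndufa11, Ndufa13 and Ndufab1, the mitochondrial acyl carrier protein; Ndufab1 did not exceed 0.0727 RPKM in any HuR library, against 0.394 RPKM in IgG 1 and 0 in IgG 2 and 3.

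Of the 10 Ndufb subunits, which build the far part of the membrane arm, 6 passed the filter and 0 the test, with a median difference of 0.77. Ndufb4 stood at 2.79, 0.357 and 4.03 RPKM in HuR libraries and 0, 0 and 0.771 RPKM in IgG libraries, with 0.0411 RPKM in Input. All HuR libraries lay above Input, but HuR 2 was below IgG 3; the difference was 1.78 ± 0.70 (SE), with a limma adjusted p of 0.106. Ndufb3 stood at 2.31, 1.05 and 1.02 RPKM in HuR libraries and 0.744, 0.492 and 0 RPKM in IgG libraries. Its groups did not overlap; the difference was 1.14 ± 0.65 (SE), with a limma adjusted p of 0.218. Ndufb9 was the most abundant complex I mRNA in HuR RIP, at 6.91, 4.66 and 8.09 RPKM, and also the most abundant in IgG RIP by mean, at 5.99, 2.04 and 1.75 RPKM. IgG 1 lay above HuR 2, and the difference was 1.05 ± 0.81 (SE), with a limma adjusted p of 0.354. Ndufb11, another X-linked subunit, stood at 2.03, 0 and 0.737 RPKM in HuR libraries and 6.11, 1.65 and 0.0764 RPKM in IgG libraries, with 2.35 RPKM in Input. All its HuR libraries lay below Input; the difference was -0.80 ± 0.84 (SE), with a limma adjusted p of 0.495. Ndufb8 and Ndufb10 had differences of 0.49 and 0.25.

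Below the filter were 4 Ndufb genes. Ndufb6 stood at 0.327, 0.495 and 0.565 RPKM in HuR libraries and 0.514, 0 and 0 RPKM in IgG libraries, with 0.774 RPKM in Input. All its libraries of both kinds were below Input. Its reads were few: 5.3, 8 and 9.3 in HuR libraries and 5, 0 and 0 in IgG libraries, with fractions where a read was shared between lines. Those HuR reads all lay in the last exon, which held 0 IgG reads, so reads scaled to library size were at least 6.76-fold higher in HuR RIP. Ndufb7 was carried by HuR 2, at 0.415, 3.66 and 0.403 RPKM in HuR libraries and 0.46, 0.124 and 0 RPKM in IgG libraries. Ndufb2, at 0.215, 0.229 and 0.409 RPKM in HuR libraries and 0.0426, 0.0367 and 0 RPKM in IgG libraries, did not overlap between the groups. Ndufb5 overlapped, with IgG 1 at 0.754 RPKM above all 3 HuR libraries, the highest of which was 0.68 RPKM.

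Ndufa4, named for complex I but now assigned to cytochrome c oxidase (complex IV), stood at 2.58, 0.972 and 0.924 RPKM in HuR libraries and 0.923, 0.0274 and 0 RPKM in IgG libraries, with 0.268 RPKM in Input. The groups did not overlap, but IgG 1 lay just under HuR 3; the difference was 1.37 ± 0.63 (SE), with a limma adjusted p of 0.145. Ndufa4l2, its hypoxia-induced paralog, had 9 reads in HuR 3 and 0 in every other pull-down library.

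The 8 Ndufaf assembly factors were scarce in every library, and 0 of the 8 passed the filter. Their summed level was 1.04, 1.61 and 3.78 RPKM in HuR libraries, against 1.74, 0.633 and 0.47 RPKM in IgG libraries and 0.653 RPKM in Input. The highest value of any of them in a HuR library was 1.16 RPKM for Ndufaf8 in HuR 3. Ndufaf4 was the 1 of the 8 above Input in all HuR libraries, at 0.376, 0.146 and 0.876 RPKM, against 0.663, 0.106 and 0 RPKM in IgG libraries and 0.135 RPKM in Input. Ndufaf1, Ndufaf3 and Ndufaf7 each had most of their HuR reads in 1 library, with 37 of 38, 41 of 42.5 and 36 of 40 reads. Ndufaf2, a paralog of Ndufa12, had 18 of its 19 HuR reads in HuR 1. Ndufaf5 had 0 HuR reads and Ndufaf6 had 8, in HuR 2. As these genes were under the RPKM filter, no difference between the groups was tested for them.

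Set against Input, 10 of the 25 tested complex I genes had all 3 HuR values over the Input mean, against 68.9% of all tested genes. They were Ndufa4, Ndufa8, Ndufa10, Ndufa12, Ndufb3, Ndufb4, Ndufb9, Ndufc2, Ndufs1 and Ndufs7. In IgG RIP, 1 of the 25, Ndufs3, stood above Input in all 3 libraries, against 20.7% of all tested genes. All 3 HuR values were under Input for 2 of the 25 (Ndufb11 and Ndufv1), against 3.9% of all tested genes, and all 3 IgG values for 4 of the 25 (Ndufa1, Ndufa2, Ndufa3 and Ndufc2), against 6.88%. With no filter, 14 of the 46 had all HuR values over Input, against 25.4% of all genes with a read in a pull-down, so the members lie under the background with the filter and above it without. HuR 2 weighed on the count: without it 17 of the 25 were over Input, against 77.3% of all tested genes, while the count was 14 without HuR 1, against 75.6%, and 10 without HuR 3, against 73.8%. Input is a mean with no spread, so these are counts without a test.

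Reads of complex I genes lay on average more toward the 3′ end in HuR RIP than in IgG RIP, but the libraries of the groups overlapped. Overlapping listed exons of a gene were merged into blocks, and the last block of the transcript is called its last exon here. It held 70.4%, 50.9% and 82.1% of the reads of the 46 genes in the HuR libraries, against 36.6%, 26.2% and 57.1% in the IgG libraries and 29.98% in Input. The means were 67.8 ± 15.8% for HuR RIP and 40.0 ± 15.8% for IgG RIP (SD, n = 3 each); HuR 2 lay below IgG 3. For the 3808 other protein-coding genes tested, the share was 75.1%, 61.5% and 84.1% in HuR libraries, against 55.9%, 83.5% and 67.0% in IgG libraries and 82.4% in Input. In these pooled shares, the gap between complex I genes and the other genes was wide in Input and narrow in HuR RIP. The sets are not alike: the 46 genes include 21 below the RPKM filter, while all the other genes passed it. A pooled share also gives most weight to the genes with the most reads. The gap was not tested. The share was also taken per gene, as a median over genes with at least 10 reads in a library. For the other genes this median was 88.28%, 70.79% and 88.3% in HuR libraries, above 53.85%, 42.91% and 41.57% in IgG libraries. For complex I genes it was 85.98%, 14.29% and 98.31% in HuR libraries, against 14.29%, 13.33% and 5.86% in IgG libraries. A higher median in HuR RIP was thus not limited to complex I genes, whose median in HuR 2 was at the IgG 1 level.

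**Figure D3:**
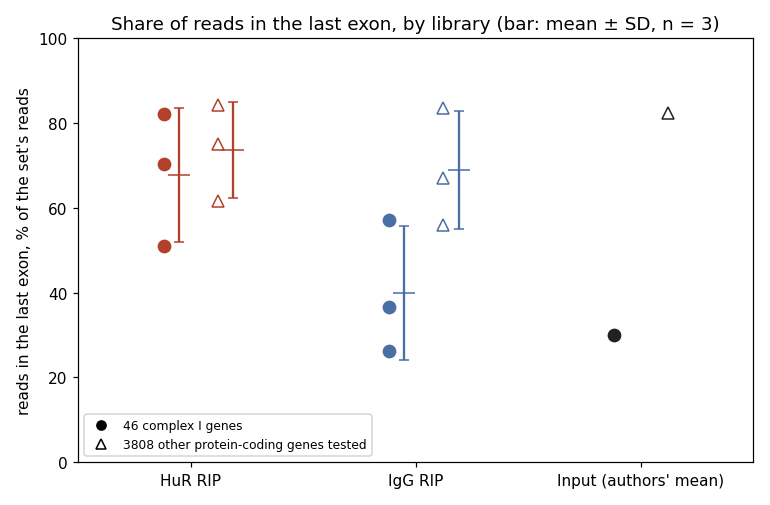
Percentage of reads in the last exon, for the 46 complex I genes (filled circles) and the 3808 other protein-coding genes tested (open triangles), in each HuR RIP and IgG RIP library and in the Input mean; bars give the mean ± SD of 3 libraries. The complex I circles average 67.8% in HuR RIP and 40.0% in IgG RIP, with 29.98% in Input, where the other genes stand at 82.4%.

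By gene, 39 of the 46 had more last-exon reads, scaled to library size, in the pooled HuR libraries than in the pooled IgG libraries, and 5 had fewer; for the 25 tested genes it was 22, against 92.1% of the other protein-coding genes tested. In 5 of the 25 tested genes all 3 HuR libraries stood above all 3 IgG libraries in the last exon, against 42.9% of the other protein-coding genes, and for all other exons together this was 1 of 25, against 9.32%. Those 5 were Ndufc2, Ndufa3, Ndufa4, Ndufs1 and Ndufs7, of which Ndufc2 and Ndufa3 passed the filter through the HuR libraries alone. Ndufs7 had 57, 12 and 196 last-exon reads in HuR libraries and 0 in every IgG library, which puts it at least 78.9-fold higher in HuR RIP, while its other exons held reads of both groups. Ndufa3 had 17, 66 and 146 last-exon reads in HuR libraries and 0, 1 and 1 in IgG libraries. Ndufs1, whose gene spans 18 exon blocks, had 33, 133 and 122 last-exon reads in HuR libraries and 1, 0 and 0 in IgG libraries. Ndufa1 had 43, 0 and 52 last-exon reads in HuR libraries, against 0 in every IgG library, where its 8 reads lay further upstream. In Ndufb4 every read of both groups lay in the last exon, with 87, 11 and 127 reads in HuR libraries and 0, 0 and 26 in IgG libraries. Ndufs8 had the opposite layout: 62 of its 66 HuR reads were HuR 2 reads in the first exon, and its last exon held 1, 0 and 3 HuR reads and 0 IgG reads.

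**Figure D4:**
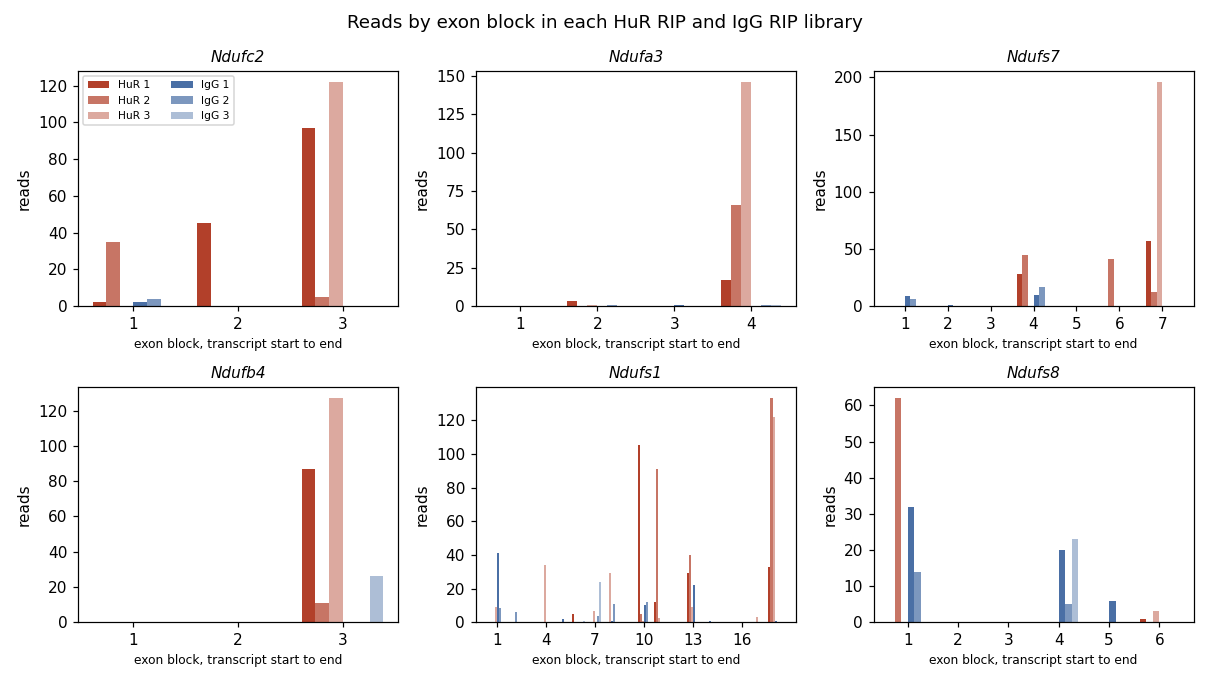
Reads in each exon block, numbered from the start of the transcript to its end, for Ndufc2, Ndufa3, Ndufs7, Ndufb4, Ndufs1 and Ndufs8, with HuR libraries in red and IgG libraries in blue. The last block of Ndufc2 holds 97, 5 and 122 HuR reads and 0 IgG reads, whereas HuR 2 has 62 reads in the first block of Ndufs8.

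Reads of a gene often came from a single exon, in complex I genes and in others. Among complex I genes with at least 10 reads in a library, over 90% of the reads lay in 1 exon block for 14 of 34 genes in HuR 1, 16 of 25 in HuR 2 and 25 of 38 in HuR 3, against 11 of 29 in IgG 1, 3 of 19 in IgG 2 and 12 of 13 in IgG 3. For the other protein-coding genes tested it was 1982 of 3632, 1506 of 3590 and 1853 of 3702 in the HuR libraries, against 845 of 3531, 702 of 2974 and 1278 of 2097 in the IgG libraries. Reads found only in lines of retained-intron transcripts made up 9.70%, 12.5% and 2.56% of the complex I reads in HuR libraries, against 2.95%, 2.08% and 2.97% in IgG libraries. In the other protein-coding genes they made up 6.53%, 8.52% and 2.89% in HuR libraries, against 23.9%, 5.18% and 6.95% in IgG libraries. Ndufs1 gave 292 of these reads in HuR libraries and 34 in IgG libraries, and Ndufb7 gave 121 and 0. For Ndufs1 this is 292 of 669.4 HuR reads, so its gene level rests in part on lines that its mature mRNA does not contain.

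Complex I genes have short annotated 3′ UTRs. The median over the longest annotated 3′ UTR of each gene was 235 bases for the 46 genes and 178 for the 25 tested ones, against 1236 for 3925 tested protein-coding genes. The share of U was similar, with a median of 27.3% for the 46 genes and 29.1% for the tested protein-coding genes. Ndufc2 stood above both, with 39.6% U in a 3′ UTR of 134 bases, while Ndufs7 had 20.0% U in 60 bases. In the last 150 bases of the mRNA, on the transcript's strand, UUUUUUU occurred in 2 of the 46 genes (4.35%), against 10.1% of the tested protein-coding genes. UUUAUUU occurred in 1 (2.17%), against 9.07%, AUUUA in 12 (26.1%), against 27%, and UAUUUAU in 0, against 4.97%; these motifs overlap, since UAUUUAU and UUUAUUU contain AUUUA or share letters with it. For the 25 tested genes the counts of these 4 motifs, in the same order, were 1, 1, 6 and 0. Where the 3′ UTR is shorter than 150 bases, as in Ndufc2 and Ndufs7, the window also holds sequence upstream of it. The counts are therefore not a measure of the 3′ UTRs alone. Where the 3′ UTR is longer, its upstream part lies outside the window. Over the whole longest 3′ UTR, UAUUUAU did occur in Ndufv2, Ndufb8 and Ndufs4. UUUUUUU occurred there in Ndufa4, Ndufb2, Ndufab1 and Ndufaf3. These whole 3′ UTR matches were not set beside those of other genes. A match is a description of the letters and not a binding site. Across the 25 tested genes, Spearman's rho between the HuR over IgG difference and 3′ UTR length was 0.233, and across the 3925 it was 0.182; the points share libraries and depth.

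The other genes of the respiratory chain give the setting. Of the other 14 listed complex I assembly factors, 5 passed the filter and 0 the test, with a median difference of 1.38. Timmdc1, a membrane-arm assembly factor, stood at 2.26, 2.56 and 5.04 RPKM in HuR libraries and 0.39, 0.186 and 0.945 RPKM in IgG libraries, with a limma adjusted p of 0.0995. Of 47 listed genes of complexes II to V, 31 passed the filter, 2 rose and 0 fell, with a median difference of 1.4 and 21 of 31 above the median of all genes. Cox7a2l, a supercomplex assembly factor, rose by 3.66 on the log2 scale, with a limma adjusted p of 0.0462, at 20.0, 21.3 and 10.7 RPKM in HuR libraries and 1.93, 0.905 and 0.225 RPKM in IgG libraries. Atp5e, the epsilon subunit of ATP synthase, rose by 3.09, with a limma adjusted p of 0.0483, at 10.4, 4.35 and 5.84 RPKM in HuR libraries and 0.359, 0.555 and 0.099 RPKM in IgG libraries. Both calls were lost with centring, at adjusted p of 0.0645 for Cox7a2l and 0.113 for Atp5e, and both without HuR 1, IgG 2 or IgG 3 (without IgG 2, adjusted p of 0.23 for each); without HuR 3 that of Atp5e was lost too, at 0.0563. Sdhd of complex II and Uqcrb of complex III had differences of 2.90 and 2.25, with limma adjusted p of 0.062 and 0.0759. Uqcrc1 of complex III differed in the other direction, by -1.72, with a limma adjusted p of 0.102. Whether complex I differs from complexes II to V was not tested.

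At the level of single exons, the authors' deposited table gives 0 complex I lines with a q under 0.05, as it does for the whole table. Of 363 complex I lines with a deposited p, 5 were under 0.05, which is 1.38%, against 2.3% of all lines with a p in the authors' deposited table. These 5 lines were 2 of Ndufb6, with a smallest deposited p of 0.0142, and 3 of Ndufs1, with a smallest of 0.0276. The last exon of Ndufc2 had a deposited p of 0.103 and a deposited q of 0.541 in the authors' deposited table.

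Some complex I values cannot be assigned to 1 gene with certainty. Exons of 16 of the 46 genes overlap a listed exon of another gene, mostly on the opposite strand, and whether strand was used in counting is not given in the sources used here. Among those named above, opposite-strand overlaps include Ndufa3 with Tfpt, Ndufs1 with Eef1b2, Ndufa2 with Tmco6, Ndufb6 with Smim27, and Ndufb11 with Rbm10. On the same strand, Ndufb9 overlaps AC158777.2, Ndufb8 overlaps Gm20538 and Ndufb2 overlaps Gm42420, which counting by strand would not separate. Pseudogene transcripts at least 90% identical over at least 200 bases were found for 13 of the 46, among them Ndufb4, Ndufa4, Ndufb11 and Ndufs6. The listed copies held 130 HuR reads and 229 IgG reads in all. Ndufc2 and Ndufs7 have neither an overlapping listed gene nor such a copy.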

How the data were processed

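The submitters' processing notes name Bowtie2, featureCounts and mm10, without versions. The deposited table holds RPKM per exon line for each pull-down library, the authors' Input mean, the authors' log2 fold values, and a deposited p-value and q-value whose test is not stated. Values from 1 upward lacked a decimal mark, which was put back with the help of the authors' log2 fold values: of 138826 distinct lines, 138761 matched in 6 folds and 65 in 5. The fold columns exchange HuR 2 and 3; the RPKM column names were followed. Library sizes, and with them read counts, were estimated from the step between small RPKM values of exons that overlap no other. Exon RPKM was turned into reads, summed per gene and divided by merged exon length. HuR RIP and IgG RIP were compared in limma 3.58.1 (R 4.3.3; trend, robust) on log2(RPKM + 0.5), at 0.5 RPKM or more in at least 3 libraries, Benjamini-Hochberg adjusted, two-sided, threshold 0.05. A fold on this scale understates the change of low genes. As 84.9% to 89.0% of gene sums were whole reads and the rest split, no count model was used. The code was tested on simulated data. Positions, 3′ UTRs and sequences are from GENCODE M21; copies were found with blastn 2.17.0. Genes in full detail were those past the threshold, the 4 smallest p per role and the 3 highest HuR means; others are named by value. The members and lists were chosen with earlier results of these data known. P-values set the difference between the groups against the spread between these libraries, which limma moderates across genes. Reads are not independent molecules, so floors cover counting error only. 1 of the 46 genes enters the counts but is not reported here by name and is not drawn.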

Additional observations from a re-analysis of the deposited data

How the results depend on the processing

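The call of Ndufc2 held in 7 of 19 alternative settings, with a difference between 1.92 and 4.51 on the log2 scale and an adjusted p between 0.00334 and 0.54; no other complex I gene passed except under 2 settings named below. Over all genes, the main count of 44 calls (37 higher, 7 lower) became 4 with a pseudocount of 1, 0 with no filter, 166 with a filter at 1 RPKM, 19 with centring (1 higher, 18 lower), 321 with TMM-like scaling (45 higher, 276 lower), 9 with quantile normalization (5 higher, 4 lower), 736 among protein-coding genes only, 5 with no trend, 2380 with sample quality weights, 0 with exon lines averaged in place of summed, 0 without HuR 3 and IgG 1 together, and between 0 and 741 with 1 library left out. Of complex I genes, 4 were called among protein-coding genes only (Ndufa3, Ndufb4, Ndufc2 and Ndufs7, background 18.5% higher) and 10 with sample quality weights (background 41.7% higher). The number was 0 with a pseudocount of 1, no filter, centring, TMM-like scaling, quantile normalization, no trend, averaged exon lines, or HuR 3 and IgG 1 left out, and between 0 and 1 with 1 library left out. The median difference of 0.89 became 1.30 with a pseudocount of 0.1 (all genes 1.47), 0.58 with no filter (all genes 0.09), -0.21 with centring, 0.0181 with TMM-like scaling and -0.0301 with quantile normalization, where the median of all genes was -0.18, 0.19 and 0.05; with 1 library left out it ran from 0.56 to 1.26. The sign turned negative for 13, 7 and 10 of the 25 genes under those scalings. The count above Input was 6 of 14 with a filter at 1 RPKM (all genes 72.3%) and between 10 and 17 of 25 with 1 HuR library left out (all genes 73.8% to 77.3%). The cause of these changes was not tested.

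The main test did not pair libraries by replicate number, and whether same-numbered HuR and IgG libraries belong together was not settled. Deviations of same-numbered libraries correlated weakly, at 0.138, 0.117 and 0.086. Each library still correlated best with its own number, and the other pairs ran from -0.089 to -0.001. With the replicate number as a block, 0 genes were called in all and 0 complex I genes, with an adjusted p of 0.0644 for Ndufc2. Of the 46 genes, 21 were below the RPKM filter and gave no test. The HuR share of last-exon reads was 69.5% when the exon with the longest annotated 3′ UTR was used.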
